A study of Drosophila melanogaster with 6 samples.

Results

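The Dpr and DIP proteins are cell surface immunoglobulin-domain proteins of Drosophila neurons. The genes described are all those whose FlyBase symbol is dpr followed by a number or DIP followed by a Greek letter. They numbered 32 of the 17559 gene identifiers counted, 21 dpr genes and 11 DIP genes, and each was named by the annotation and not by its values. RNA was sequenced from 3 samples of embryos of genotype lola-O / Df(2R)ED2076, in which isoform O of the transcription factor gene lola is knocked out over a deficiency, and from 3 samples of genotype Wild type / Df(2R)ED2076. The deficiency was therefore carried by both groups, and the groups differed in the other second chromosome. Each sample was a pool of 100 whole embryos aged 20 to 22 hours after egg laying, the end of embryogenesis. No label states that a group's 3 samples were collected or crossed separately, and the p-values therefore describe sample-to-sample spread that may be technical.

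Each Dpr protein binds a small number of DIP proteins, and each DIP protein a small number of Dpr proteins, when they meet on the surfaces of neighbouring cells. Different neurons express different members, so that matching Dpr and DIP pairs mark particular pre- and postsynaptic cells. The pairs act in synaptic target choice, synapse formation and neuron survival, best known in the visual system, the mushroom body and the neuromuscular junction. The family takes its name from dpr1, whose loss causes a defective proboscis extension response to salt.

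Libraries held 16217213 to 22759638 counts. The 32 genes together took 0.0707% to 0.0736% of counts in the lola-O samples and 0.0753% to 0.0794% in the controls. FBgn0005630, the older FlyBase identifier of lola, had 338 to 364 CPM (counts scaled to a library size of 1e6, with TMM scaling between libraries) in the lola-O samples and 402 to 424 CPM in the controls. This value sums all isoforms, so it does not check the loss of isoform O. The 14 neuron markers found among the identifiers were all detected. The pan-neuronal RNA-binding protein gene elav was at 181 CPM in the lola-O samples and 203 CPM in the controls. Its log2 fold change of -0.17 became 0.0135 (edgeR adjusted p = 0.791) when the transcript-length trend described below was removed. Of the 14 markers, 8 fell by edgeR, 6 were not called and 0 rose, against 19.5% lower and 20.2% higher over all tested genes. With the length trend removed, 1 marker was lower and 3 were higher, against 14.9% lower and 16.7% higher over all genes in that fit. Whole embryos were sequenced, so fewer cells of a type and less RNA per cell cannot be told apart.

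All 32 members were expressed and passed the low-count filter, with 10 to 1764 counts per library. Levels of different genes were compared as length-scaled levels, which are counts per kilobase of annotated exons scaled to a common sum per library. On this scale the median tested gene stood at -0.066 (log2) in lola-O over control, against 0.0010 in the edgeR fit, so group levels set side by side on it carry that shift, and ratios within a library do not. The median length-scaled level of the members was 9.98, against 17.6 for all tested genes. The dpr genes were the more abundant family, with a median length-scaled level of 13.5 against 7.05 for the DIP genes, and 14 of the 21 dpr genes lay above the most abundant DIP gene. The levels spanned a 37.8-fold range across members.

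The most abundant member was dpr7, at a length-scaled level of 42.8 ± 1.38 in the lola-O samples and 45.4 ± 2.15 in the controls (SD, n = 3 each). Next came dpr12, dpr11 and dpr9, with averages over the 6 samples of 27.5, 23.9 and 22.9 on the same scale. The gene dpr7 stood clear of these, because its lowest sample was above the highest sample of any other member. The genes dpr11 and dpr9 followed dpr12, and their samples overlapped each other. The lowest dpr gene was dpr16, at a length-scaled level of 3.06. The most abundant DIP genes were DIP-beta at 10.3 and DIP-zeta at 9.68 on this scale, and their samples overlapped. The lowest member of all was DIP-iota, at a length-scaled level of 1.32 ± 0.603 in the lola-O samples and 1.02 ± 0.391 in the controls (SD, n = 3 each), from 10 to 24 counts per library.

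**Figure D1:**
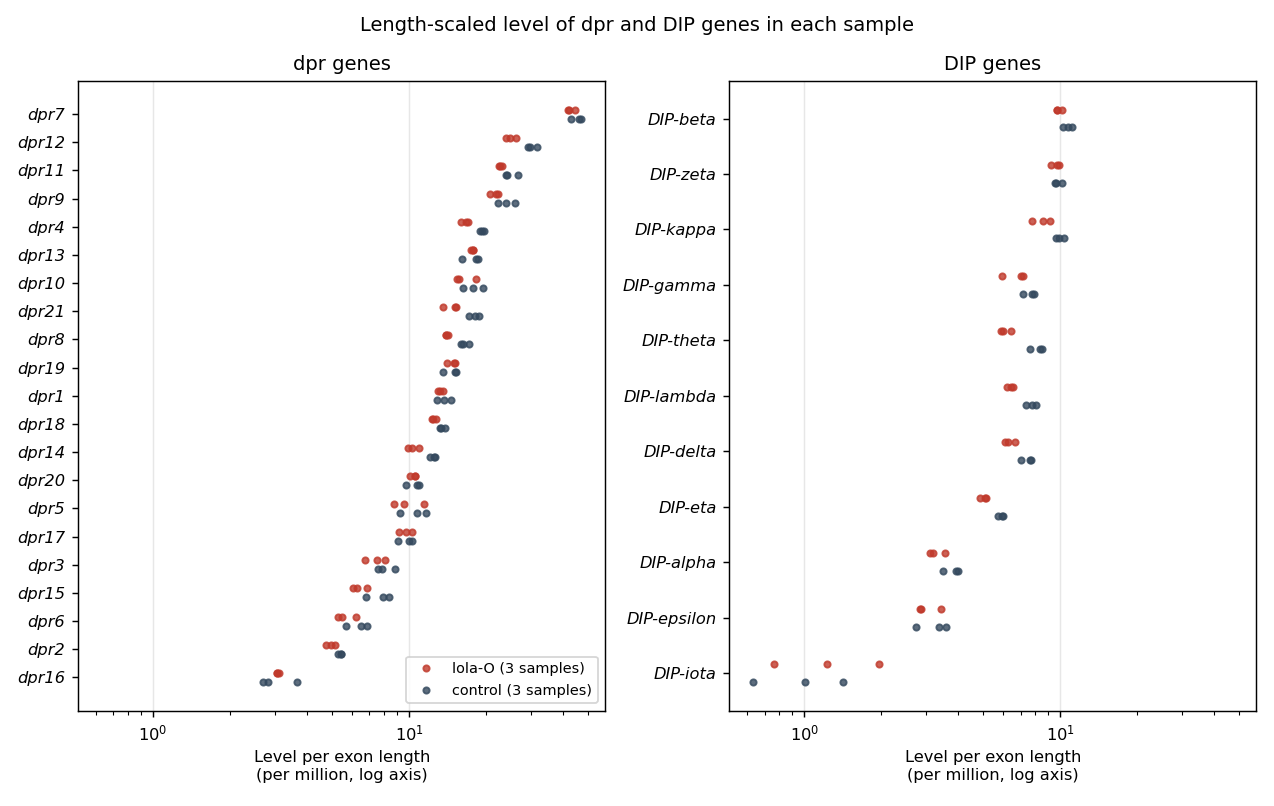
Length-scaled level of each dpr gene (left) and DIP gene (right) in every sample, on a log axis, with genes ordered by their mean over 6 samples and the lola-O points drawn above the control points. The gene dpr7 is highest and DIP-iota lowest, and the distance between members (37.8-fold) is far wider than the distance between the groups for any member.

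The comparison of lola-O with control embryos asked which of these recognition genes differ when isoform O of lola is lost. Of the 32 tested members, 6 fell and 0 rose at an edgeR adjusted p below 0.05. Those that fell were the dpr genes dpr12, dpr8, dpr14 and dpr4 and the DIP genes DIP-theta and DIP-kappa, by 10.1% to 21.3%. The members' share called was 18.8%, against 39.7% of all 10312 tested genes in either direction. For lower genes alone the background was 19.5%, so the members' share of falls was close to that of all genes. For higher genes the background was 20.2%, against 0 of 32 members. Before adjustment, 10 members were lower and 0 were higher at p below 0.05, against 2349 lower and 2439 higher of the 10312 tested genes. DESeq2 called 3 members lower and 0 higher, against 1461 lower and 1522 higher among those 10312 genes. The median log2 fold change was -0.062 for the members, against 0.0010 for all tested genes. In CPM, the lola-O and control samples did not overlap for 11 members, which is 34.4% of them, against 47.8% of all tested genes. Of these, 10 lay wholly lower in lola-O, against 23.7% of all tested genes, and 1 wholly higher, against 24.1%. The median level of the members was 19.3 CPM, against 23.3 CPM for all tested genes, and the median standard error of a log2 fold change was 0.071 for members and 0.066 for all tested genes.

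The changes were small for every member that was called. A test for a change of more than 1.2-fold (glmTreat in edgeR) called 0 of the 32 members at adjusted p below 0.05 and 0 before adjustment, against 5.37% of all tested genes. The 95% interval of the fold change lay within 1.5-fold in either direction for 31 of 32 members, and DIP-iota was the exception, with an interval of 0.824-fold to 2.16-fold. Among the 26 members that did not pass, the interval lay within 1.2-fold for 15.

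**Figure D2:**
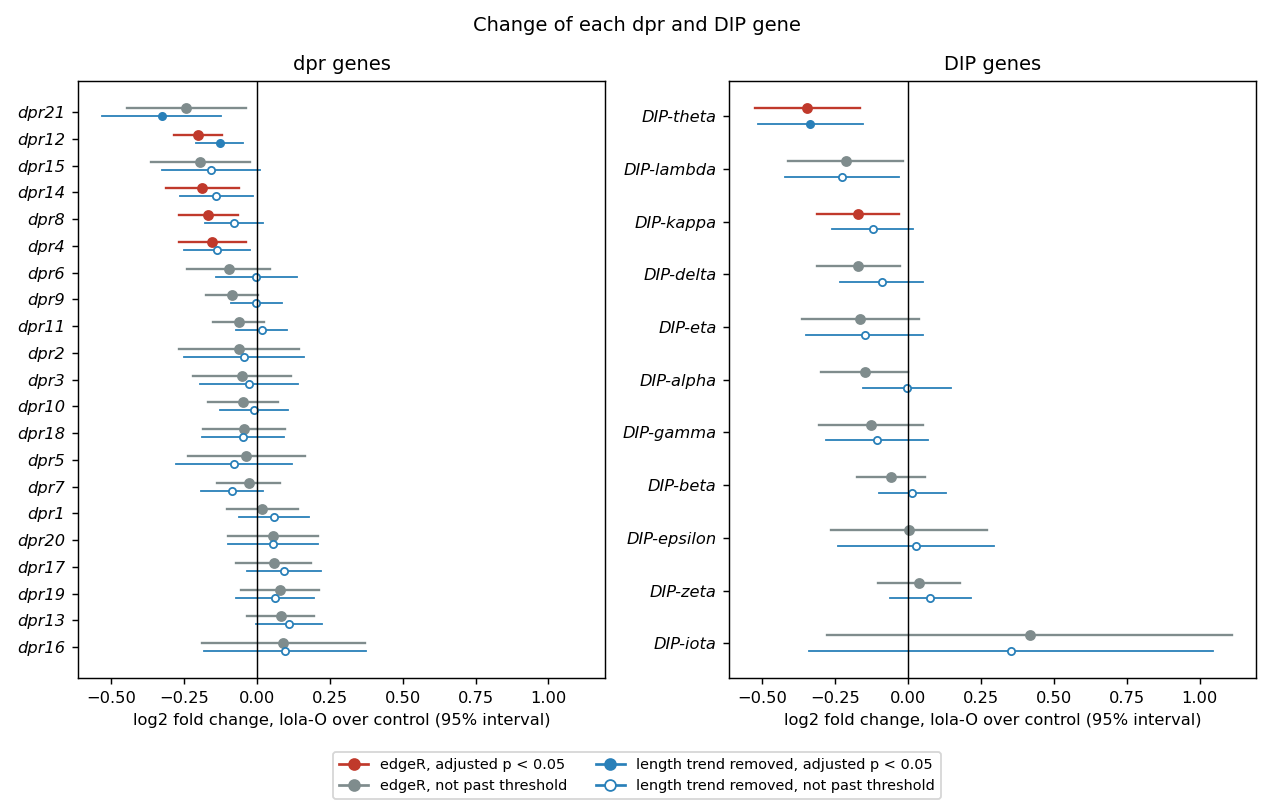
Log2 fold change of lola-O over control with its 95% interval for each dpr gene (left) and DIP gene (right); the upper point of each row is the edgeR fit and the lower point the fit after removal of the transcript-length trend. The 6 members past the threshold lie between -0.35 and -0.15, and after removal of the length trend dpr12, DIP-theta and dpr21 pass.

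The gene dpr12 had the smallest adjusted p of the family. Dpr12 binds DIP-delta, and this pair is known for the wiring of mushroom body neurons with dopaminergic neurons. The gene is annotated on the plus strand of 2R between 5804712 and 5860831 (BDGP6.54), 4.62 Mb from the annotated lola locus. It had 65.9, 71.1 and 65.8 CPM in lola-O samples 1, 2 and 3, and 75.4, 77.8 and 80.1 CPM in control samples 1, 2 and 3. Every lola-O sample was below every control. The means were 67.6 ± 3.03 CPM in lola-O and 77.7 ± 2.35 CPM in control embryos (SD, n = 3 each), which corresponds to a log2 fold change of -0.20 ± 0.041 SE, with an adjusted p of 4.17e-05 by edgeR. Its partner DIP-delta, on 3L, was lower by a similar amount and missed the threshold. DIP-delta had 17.0, 18.4 and 17.1 CPM in lola-O samples 1 to 3, and 20.2, 18.9 and 20.0 CPM in control samples 1 to 3, a log2 fold change of -0.17 ± 0.072 SE, with an adjusted p of 0.0504 by edgeR. The groups did not overlap for DIP-delta, and the gene crossed the threshold with RLE size factors (edgeR adjusted p = 0.0482), with the filter of 1 CPM (0.0475), and without lola-O 2 (0.0389) or control 2 (0.0454); over its alternatives the adjusted p ranged from 0.0389 to 0.363.

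The largest fall was that of DIP-theta, which with DIP-eta and DIP-iota forms the set of DIP proteins that bind Dpr1 to Dpr5. DIP-theta is annotated on the minus strand of 2L between 5626291 and 5658560 (BDGP6.54). It had 9.57, 9.96 and 10.8 CPM in lola-O samples 1 to 3, and 13.2, 12.3 and 13.2 CPM in control samples 1 to 3. The highest lola-O sample was below the lowest control. The log2 fold change was -0.35 ± 0.091 SE, with an adjusted p of 0.00139 by edgeR, from 159 to 219 counts per library in the lola-O samples and 235 to 286 in the controls. An annotated non-coding gene on the same strand, lncRNA:CR44822, shares 12.6% of the DIP-theta exon bases and had 0 to 3 counts per library in the lola-O samples and 2 to 5 in the controls. DIP-eta starts 8.34 kb from DIP-theta on the same strand. It had 8.55, 8.89 and 8.50 CPM in lola-O samples 1 to 3, and 9.81, 9.57 and 9.65 CPM in control samples 1 to 3. Its groups did not overlap either, but it did not pass, with a log2 fold change of -0.16 ± 0.10 SE, with an adjusted p of 0.197 by edgeR. DIP-iota, the third of the set, had a log2 fold change of 0.42 with an SE of 0.35 (edgeR adjusted p = 0.365).

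Among the Dpr1 to Dpr5 genes, dpr4 alone passed. The gene dpr4 is annotated on the minus strand of 3R between 11533483 and 11542949 (BDGP6.54). It had 28.8, 29.0 and 27.9 CPM in lola-O samples 1 to 3, and 32.0, 31.7 and 31.5 CPM in control samples 1 to 3. The groups did not overlap, and the log2 fold change was -0.15 ± 0.057 SE, with an adjusted p of 0.0266 by edgeR. Its neighbour dpr5, 27.5 kb away on the other strand, had a log2 fold change of -0.037 (SE 0.10) and overlapping groups. The remaining genes of the set, dpr1, dpr2 and dpr3, had log2 fold changes of 0.018, -0.062 and -0.052 and did not pass. An antisense gene, asRNA:CR45056, shares 15.7% of the dpr4 exon bases and had 1 count in the 6 libraries together. The call of dpr4 was lost without lola-O 1, lola-O 3, control 1 or control 2 (edgeR adjusted p = 0.0501, 0.118, 0.0749 and 0.0615) and with DESeq2 (adjusted p = 0.130); the adjusted p over its alternatives ranged from 0.0245 to 0.130.

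The gene dpr8 encodes a partner of DIP-beta, with Dpr9 and Dpr21. It is annotated on the plus strand of the X between 14322226 and 14462351 (BDGP6.54). It had 39.0, 40.5 and 40.3 CPM in lola-O samples 1 to 3, and 44.6, 44.2 and 45.8 CPM in control samples 1 to 3. The groups did not overlap, with a log2 fold change of -0.17 ± 0.050 SE, with an adjusted p of 0.00509 by edgeR. The gene dpr21, on 2R near the centromere, had 7.58, 8.64 and 8.84 CPM in lola-O samples 1 to 3, and 10.3, 10.01 and 9.20 CPM in control samples 1 to 3. Its groups did not overlap, and its log2 fold change of -0.24 ± 0.10 SE, with an adjusted p of 0.0529 by edgeR fell just short of the threshold, which it passed without control 3 (adjusted p = 0.0348). The most abundant of these 3 partners per length, dpr9, had a log2 fold change of -0.087 ± 0.045 SE, with an adjusted p of 0.120 by edgeR, with 58.3 to 62.1 CPM in the lola-O samples and 60.1 to 67.6 CPM in the controls; without control 2 it passed (adjusted p = 0.0367). DIP-beta itself had a log2 fold change of -0.058 (SE 0.058) and overlapping groups.

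The other members that passed were dpr14 and DIP-kappa. The gene dpr14, on the X from 7903704 to 7908286 on the minus strand (BDGP6.54), had 24.2, 22.4 and 23.5 CPM in lola-O samples 1 to 3, and 26.1, 27.3 and 26.5 CPM in control samples 1 to 3. The groups did not overlap, with a log2 fold change of -0.19 ± 0.063 SE, with an adjusted p of 0.0122 by edgeR. It did not pass without lola-O 2 (edgeR adjusted p = 0.0640), without control 2 (0.0608) or with DESeq2 (0.0810), over an adjusted p range of 0.0116 to 0.0810. DIP-kappa, a partner of Dpr7, is annotated on the minus strand of 2L between 13676860 and 13717320 (BDGP6.54). It had 17.4, 20.98 and 19.9 CPM in lola-O samples 1 to 3, and 21.2, 22.1 and 22.3 CPM in control samples 1 to 3, so that the groups were separated by a narrow gap and lola-O 1 stood lowest. The log2 fold change was -0.17 ± 0.070 SE, with an adjusted p of 0.0447 by edgeR. Without lola-O 1 it was -0.096 (edgeR adjusted p = 0.356), and the call was also lost without lola-O 3, control 2 or control 3 (adjusted p = 0.0643, 0.113 and 0.0942) and with DESeq2 (adjusted p = 0.199), over a range of 0.0205 to 0.356. The gene dpr7 had 35.9, 38.8 and 37.1 CPM in lola-O samples 1 to 3, and 39.4, 39.0 and 35.1 CPM in control samples 1 to 3, overlapping values with a log2 fold change of -0.028 (SE 0.054).

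**Figure D3:**
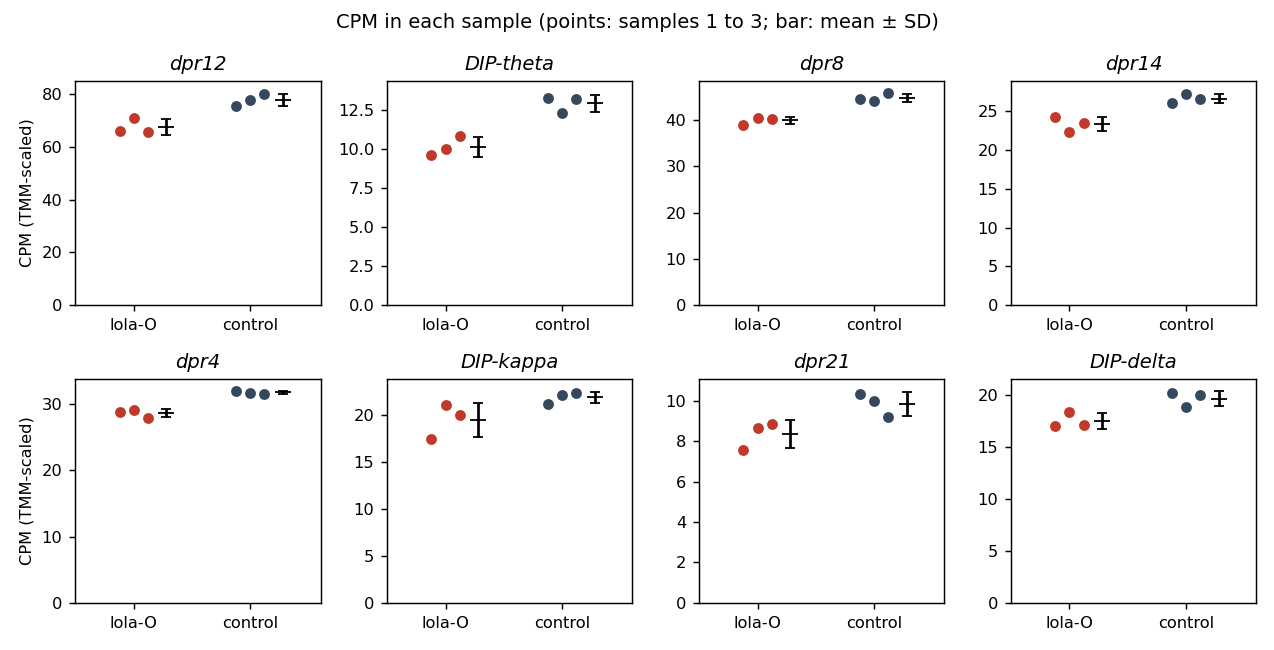
CPM of the 6 members that passed and of dpr21 and DIP-delta, which fell just short, in each of the 3 lola-O and 3 control samples, with the mean ± SD beside them and axes from 0. In all 8 panels every lola-O sample lies below every control, by margins that are small against the level. The 8 genes are the members with the smallest adjusted p, and 23.7% of all tested genes also lay wholly lower in lola-O. For dpr12 the samples span 65.8 to 71.1 CPM in lola-O and 75.4 to 80.1 CPM in the controls.

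The best studied pairs did not pass the test. DIP-alpha with Dpr6 and Dpr10 sets layer choice and survival of visual system neurons, and Dpr10 on muscles guides motor axon branches that carry DIP-alpha. DIP-alpha had 16.1 to 18.01 CPM in the lola-O samples and 16.8 to 20.0 CPM in the controls, a log2 fold change of -0.15 (95% interval -0.30 to 0.0010, edgeR adjusted p = 0.110), and it passed without control 3 (adjusted p = 0.0252). Its partners dpr6 and dpr10 had log2 fold changes of -0.097 (95% interval -0.24 to 0.046) and -0.050 (-0.17 to 0.070). The groups overlapped for all 3. DIP-gamma, whose pairing with Dpr11 matches photoreceptors to their targets and shapes motor terminals, had 10.7 to 12.7 CPM in the lola-O samples and 12.01 to 13.7 CPM in the controls, a log2 fold change of -0.13 (95% interval -0.30 to 0.050). Its partners dpr11, dpr15, dpr16 and dpr17 had log2 fold changes of -0.063, -0.20, 0.091 and 0.057, of which dpr15 had the smallest adjusted p (0.0601, edgeR). The gene dpr15 passed without lola-O 1 or control 2 (edgeR adjusted p = 0.0496 and 0.0175) and did not in the other fits that left out a sample.

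The Dpr partners of DIP-epsilon and DIP-zeta did not pass the test. The genes dpr13, dpr19 and dpr20 had log2 fold changes of 0.080, 0.078 and 0.055, with 95% intervals that all included 0. The gene dpr13 had 33.0, 33.3 and 34.1 CPM in lola-O samples 1 to 3, and 32.9, 29.5 and 32.8 CPM in control samples 1 to 3. It was the sole member whose lola-O samples all lay above the controls, and its log2 fold change had an SE of 0.057 (edgeR adjusted p = 0.271). The log2 fold change was 0.0026 (SE 0.13) for DIP-epsilon and 0.037 (SE 0.070) for DIP-zeta. Of the members without an assigned partner here, dpr18 had a log2 fold change of -0.044 (SE 0.070). DIP-lambda, with 8.91, 9.27 and 8.89 CPM in lola-O samples 1 to 3 and 9.99, 11.1 and 10.3 CPM in control samples 1 to 3, had a log2 fold change of -0.22 ± 0.098 SE, with an adjusted p of 0.0749 by edgeR, with groups that did not overlap.

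Set against their partners, the Dpr genes were the more abundant side in each of the 7 partner groups described. The summed length-scaled level of the Dpr genes was 3.39 to 6.78 times that of their DIP genes in the lola-O samples, and 3.29 to 6.42 times in the controls; both extremes were the DIP-epsilon and DIP-zeta group and the DIP-alpha group. These groups hold unequal numbers of genes. In the single pairs, dpr12 was 3.94 times DIP-delta in the lola-O samples and 4.04 times in the controls, and dpr7 was 5.07 times DIP-kappa in the lola-O samples and 4.57 times in the controls. Summed over the families, the dpr to DIP ratio of length-scaled levels was 4.55, 4.51 and 4.55 in lola-O samples 1 to 3, and 4.38, 4.30 and 4.43 in control samples 1 to 3. The ratio was higher in every lola-O sample than in every control. Summed DIP expression was 146.5, 154.3 and 148.6 CPM in lola-O samples 1 to 3, below the 164.6, 163.8 and 159.9 CPM of control samples 1 to 3. Summed dpr expression was 563, 593 and 568 CPM in lola-O samples 1 to 3, and 606.5, 591.5 and 619 CPM in control samples 1 to 3, and these groups overlapped through lola-O 2 and control 2.

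The mean log2 ratio of DIP to Dpr levels within a partner group differed by at most 0.15 between genotypes. For DIP-eta, DIP-theta and DIP-iota against Dpr1 to Dpr5, the log2 ratio of DIP to Dpr levels was -2.07 ± 0.040 in the lola-O samples and -1.92 ± 0.056 in the controls (SD, n = 3 each), and the samples did not overlap. The samples also did not overlap for DIP-beta, with a log2 ratio of -2.35 ± 0.0135 in the lola-O samples and -2.45 ± 0.094 in the controls, or for DIP-epsilon and DIP-zeta, with -1.76 ± 0.0072 in the lola-O samples and -1.72 ± 0.017 in the controls (SD, n = 3 each). In the DIP-beta group the lola-O samples were the higher ones. For DIP-delta against Dpr12 it was -1.98 ± 0.0057 in the lola-O samples and -2.01 ± 0.073 in the controls (SD, n = 3 each), overlapping values. For DIP-alpha against Dpr6 and Dpr10 the ratio was -2.75 ± 0.21 in the lola-O samples and -2.67 ± 0.23 in the controls, a difference below either SD. The largest difference was that of DIP-kappa against Dpr7, with -2.34 ± 0.088 in the lola-O samples and -2.19 ± 0.12 in the controls, and these values overlapped. The DIP-gamma group had -2.65 ± 0.14 in the lola-O samples and -2.58 ± 0.16 in the controls, also overlapping (SD, n = 3 each). These ratios are sums over members and are given as descriptions, without a test. Neither they nor the summed dpr to DIP ratio were computed with the transcript-length trend described below removed, and partners differ in length. The longest transcript was 3841 bases for DIP-kappa and 1515 for dpr7. Their log2 fold changes were -0.17 and -0.028 in the edgeR fit, and -0.12 and -0.087 after removal of that trend.

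**Figure D4:**
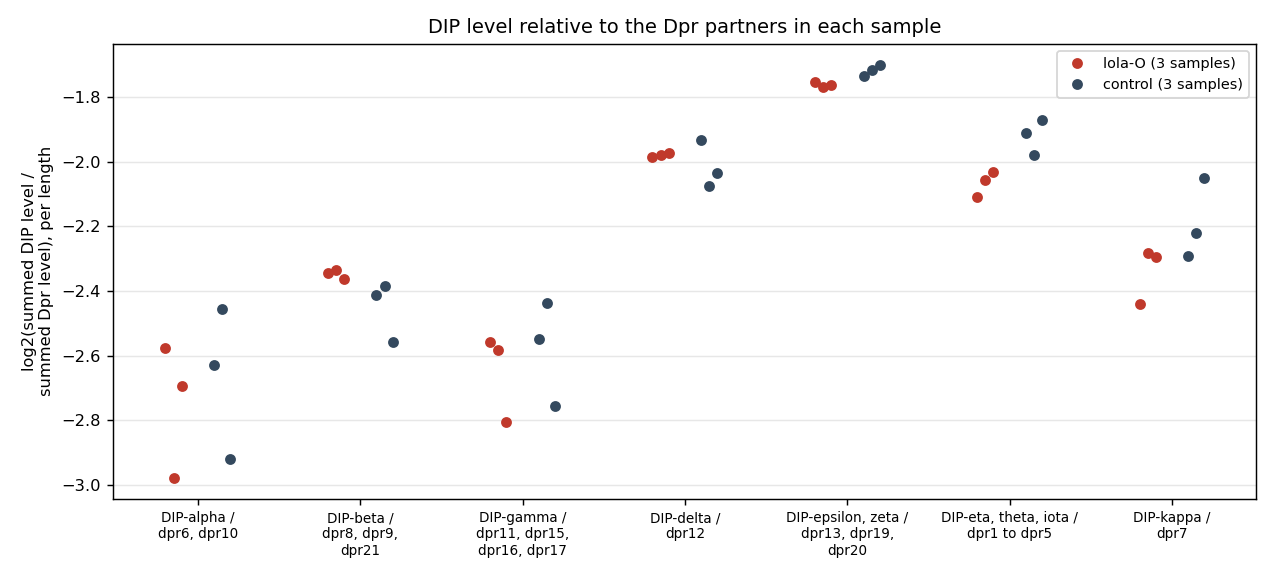
Log2 ratio of the summed DIP level to the summed level of the Dpr partners, per exon length, in each of the 3 lola-O and 3 control samples for 7 partner groups. All ratios are below 0, since the Dpr side is more abundant. In lola-O the means run from -2.75 (DIP-alpha) to -1.76 (DIP-epsilon and zeta). Some partner groups, such as DIP-beta (-2.35) and DIP-kappa (-2.34), lie closer to each other than lola-O lies to control within them. The DIP-eta, theta and iota group is lower in all lola-O samples (mean -2.07) than in the controls (mean -1.92).

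The 4 closest pairs of neighbouring members shared partners, and the next closest, DIP-epsilon and DIP-iota (205.8 kb apart), did not. The members lie on 2L (9), 2R (5), 3L (4), 3R (8), the X (5) and chromosome 4 (1). The 4 closest pairs were dpr6 and dpr10 (8.09 kb apart), DIP-eta and DIP-theta (8.34 kb), dpr17 and dpr15 (27.4 kb) and dpr5 and dpr4 (27.5 kb), and in each pair both members belong to the same partner group. In DIP-eta and DIP-theta the log2 fold changes were -0.16 and -0.35, in dpr6 and dpr10 -0.097 and -0.050, in dpr17 and dpr15 0.057 and -0.20, and in dpr5 and dpr4 -0.037 and -0.15. Of the 6 members that passed, 3 lie on chromosome 2, which holds 14 of the 32 members. The chromosomes that differ between the genotypes were not compared for sequence, and their part in these values was not tested.

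Fold changes over all genes varied with transcript length, and the members were therefore also fitted without that trend. The median longest transcript was 3222 bases for members and 2001 for all tested genes, and the 1011 tested genes with the longest transcripts, 5347 bases or more, had a median log2 fold change of -0.14. When a smooth trend of each library on transcript length was removed, 3 members passed, all lower, against 31.6% of all 10110 tested genes with a length in either direction and 14.9% in the direction of lower. The gene dpr12 stood at -0.13 on the log2 scale in that fit (edgeR adjusted p = 0.00980), against -0.20 without the removal. DIP-theta stood at -0.34 (edgeR adjusted p = 0.00222), against -0.35 without the removal. The longest DIP-theta transcript, 2881 bases, is shorter than the median of the members. The third was dpr21, which has the shortest transcript of the family at 993 bases, with -0.33 (edgeR adjusted p = 0.00910), against -0.24 without the removal. The genes dpr8, dpr14, dpr4 and DIP-kappa did not pass there (edgeR adjusted p = 0.233, 0.0809, 0.0566 and 0.189). Their log2 fold changes in that fit were -0.080, -0.14, -0.14 and -0.12, against -0.17, -0.19, -0.15 and -0.17 without the removal. Among these genes that lost their call, the value for dpr8 was the one that moved by more than 1.5 times. The value for dpr12, which kept its call, also moved by more than 1.5 times. The median log2 fold change of the members was then -0.036, against 0.0013 for all tested genes. In both fits dpr12 and DIP-theta passed, and they also passed with each sample left out in turn and with DESeq2 (adjusted p = 0.00110 and 0.0205). Over all alternatives except the 1.2-fold test, the adjusted p ranged from 6.72e-06 to 0.00980 for dpr12 and from 0.00116 to 0.0205 for DIP-theta.

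Other surface proteins with immunoglobulin domains, and cDIP, a secreted protein that binds many Dpr and DIP proteins, were examined beside the family. Of 17 tested genes of this list, 11 fell and 0 rose, against 19.5% lower and 20.2% higher over all tested genes. Their median log2 fold change was -0.14. Before adjustment 12 were lower and 0 higher at p below 0.05, against 2349 lower and 2439 higher of all 10312 tested genes. DESeq2 called 9 of the list lower and 0 higher, against 1461 lower and 1522 higher among those 10312 genes. The smallest adjusted p values were those of CG13506, the septate junction gene Cont, the cell adhesion gene ed and the neuroglian gene Nrg, with log2 fold changes of -0.23, -0.21, -0.17 and -0.12. The gene cDIP had 10.5 ± 0.438 CPM in the lola-O samples and 11.7 ± 0.827 CPM in the controls (SD over 3 samples each), and its log2 fold change of -0.16 did not pass (0.181 by edgeR, adjusted). The relatives of Dpr and DIP proteins Lac and klg fell by 0.14 and 0.12 on the log2 scale. After removal of the length trend, 3 of the 17 passed, all lower, against 14.9% lower over all genes in that fit, and the median was -0.059. These 3 were CG13506, Cont and Lac. In that fit ed, Nrg and klg did not pass, with log2 fold changes of -0.050, 0.015 and -0.059 (edgeR adjusted p = 0.252, 0.702 and 0.319).

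Marker genes of several cell types were measured beside the family, and their counts are to be read against the 19.5% of all tested genes that were lower and the 20.2% that were higher. Of all 10312 tested genes, 2349 were lower and 2439 higher before adjustment, and DESeq2 called 1461 lower and 1522 higher. Of 14 tested neuron markers, 8 fell and 0 rose by edgeR (9 and 0 before adjustment, 8 and 0 by DESeq2), with summed levels of 3535 to 3725 CPM in the lola-O samples and 3815 to 3866 CPM in the controls. The cadherin gene CadN, the calcium channel gene cac, the active zone gene brp and the syntaxin gene Syx1A led these, with log2 fold changes of -0.21, -0.19, -0.16 and -0.18. With the length trend removed, CadN, cac and brp stood at 0.0027, -0.0059 and 0.040 and did not pass (edgeR adjusted p = 0.958, 0.917 and 0.295). Syx1A still passed in that fit, at -0.12 (edgeR adjusted p = 0.00309). Of 12 tested glia markers, 5 fell and 2 rose, with sums of 1254 to 1274 CPM in the lola-O samples and 1333 to 1366 CPM in the controls. The lower ones included gem, Mdr65, moody and Tret1-1. The 2 that rose were alrm and Eaat1, with log2 fold changes of 0.13 and 0.12. The glial gene repo did not pass, at -0.085 (edgeR adjusted p = 0.473). Of 15 tested muscle genes, 9 fell and 2 rose, with sums of 34190 to 34680 CPM in the lola-O samples and 38130 to 38370 CPM in the controls. Motor neuron markers summed to 314 to 324 CPM in the lola-O samples and 333 to 347 CPM in the controls, and of 7 tested, zfh1 alone passed, with a log2 fold change of -0.17. Haemocyte markers (4 of 8 lower, 1 higher) and epidermal and cuticle genes (2 of 6 tested lower, 2 higher) were also measured. Of 6 fat body genes, 2 were tested, apolpp and Lsd-2, and these were lower. The fat body genes Lsp1beta, Lsp2, Fbp1 and Fbp2 had 0 to 4 counts per library and did not pass the low-count filter. No listed marker was at 0 in all libraries. After removal of the length trend, 3 of 14 neuron markers were higher and 1 was lower, 10 of 15 muscle genes were lower and 1 was higher, and 5 of 12 glia markers were lower and 1 was higher, against 14.9% lower and 16.7% higher over all genes in that fit. Of the haemocyte markers 2 were then lower and 1 higher, of the epidermal and cuticle genes 2 lower and 2 higher, and of the fat body genes 1 lower and 1 higher, and zfh1 did not pass (edgeR adjusted p = 0.423). The part of these cell types in the changes of the dpr and DIP genes was not tested.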

How the data were processed

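The authors deposited raw counts of reads, 1 value for each FlyBase identifier and not normalized, from directional polyA libraries. The tools listed, per the submitters' processing notes, are bedtools 2.25.0, SAMtools 1.3.1, STAR 2.5.2b and Subread 1.5.1, with build BDGP6. How strand and reads shared by genes were treated is not given in the sources used here, so counts of the 6 members whose exons overlap other genes are uncertain. Samples were grouped by their titles. Symbols and positions came from the Ensembl release 115 annotation of BDGP6.54, a later release name of the same build, which matched 17253 identifiers; 306 did not match. Length-scaled levels use the union of annotated exons.

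All genes were fitted with edgeR 4.0.16 in R 4.3.3 (TMM, filterByExpr, robust quasi-likelihood test of lola-O against control, 2-sided, Benjamini-Hochberg adjustment over 10312 tested genes, calls at adjusted p below 0.05). CPM use the TMM-scaled library sizes of tested genes. The alternatives were RLE factors, no filter, a filter of at least 1 CPM in at least 3 libraries, DESeq2 1.42.0, a replicate block, removal of a transcript-length trend (lowess on log2 length, span 0.3, as an offset), a minimum fold change of 1.2, and leaving out each sample. The adjusted p ranges of single members cover these alternatives and the length-trend removal with a replicate block. They leave out the 1.2-fold test, in which 0 members passed. The fit was tested on simulated data. Replicates differed by more than sampling noise (chi-square divided by its degrees of freedom was 1.94 to 6.14). Intervals cover the spread between samples. Partner groups are background knowledge from binding studies; dpr14, dpr18 and DIP-lambda were given none. Members named in full were those that passed and their partner groups, and of other lists up to 4 genes with the smallest adjusted p. The genes dpr13, DIP-lambda, cDIP, Lac, klg, elav, alrm, Eaat1, repo and the untested fat body genes were named after their values were seen. The listed symbols hbs, para, VAChT, wupA and svb had no matching identifier and were not analysed here. The members, lists and tests were chosen with earlier results of these data known.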

Additional observations from a re-analysis of the deposited data

How the results depend on the processing

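Of 32 members, 6 were called, 4 dpr genes and 2 DIP genes. DESeq2, removal of the transcript-length trend, and that removal with a replicate block (added after the data were seen) each called 3, of which 2 were dpr genes and 1 a DIP gene, and the 1.2-fold test called 0, 0 and 0. Leaving out each sample gave 4 to 7 members, 3 to 5 dpr genes and 1 to 3 DIP genes, with 1 DIP gene without lola-O 1 or lola-O 3. The member median was -0.062 in the reported fit and -0.11 (without lola-O 2) to -0.052 with a sample left out. With the longest transcript in place of the union of exons, the summed dpr over DIP ratio in lola-O was 4.46 in place of 4.54. Whether the replicate numbers of the titles pair the samples could not be decided, because deviations within a group of 3 sum to 0. Deviations of same-numbered samples from their group means correlated at 0.0225, -0.0276 and 0.0425. Over all pairings of a lola-O and a control sample the correlations ran from -0.0515 to 0.0425, and lola-O 1 correlated best with control 2 (0.0318). With the replicate block 7 members were called, dpr15 being added. No member changed sign with a call in any alternative. Across all genes, DESeq2 called 26.7% and the 1.2-fold test 5.37% of those tested, against 39.7%. The depth limits DIP-iota most, whose fold change interval reached 2.16.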
